A study of Mus musculus with 38 samples.

Results

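The transcriptional regulators of brown fat identity and oxidative metabolism were followed as a set of 10 genes in brown adipose tissue of C57BL/6J mice. The set was fixed by gene name, as Prdm16, Ebf2, Zic1, Ppargc1a, Ppargc1b, Ppara, Pparg, Esrra, Cebpa and Cebpb, and all 10 were found among the 29411 gene names of the array. All 10 also belonged to the 21856 genes that were bright enough to be tested. Tissue was profiled on 38 arrays with 1 colour each. Weaned mice of 3 to 4 weeks were put on a low fat diet with 10% of calories from fat (LFC), on a high fat and high sucrose diet with 60% of calories from fat (HFC), or on that high fat diet with the ethano-botanical formulation KAL-1 at 5, 20 or 75 µg (HF5, HF20 and HF75). LFC and HFC had 10 arrays each, at days 6, 10 and 14 and at weeks 0, 3, 6, 9, 12, 15 and 18. Each dose had 6 arrays, at weeks 3 to 18. A group had 1 array per time point, so its time points served as replicates, and p-values measure only the spread between these arrays. The labels do not say whether an array holds 1 animal or a pool.

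Brown adipocytes burn fatty acids for heat through Ucp1, a mitochondrial carrier that lets protons bypass ATP synthesis. Prdm16 and Ebf2 are factors that commit precursors to the brown lineage, and Zic1 is a marker factor of classical brown depots. Ppargc1a and Ppargc1b, the coactivators PGC-1α and PGC-1β, have no DNA binding of their own and act on nuclear receptors, among them Ppara (driver of fatty acid oxidation genes), Pparg (the main regulator of fat cell differentiation) and Esrra (the orphan receptor ERRα, which acts on mitochondrial genes). Cebpa and Cebpb are basic leucine zipper factors, of which Cebpb acts early and Cebpa late in fat cell differentiation.

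The 250 bases before the annotated start site of Ppargc1a, Ppara, Esrra and Cebpa are printed here because these genes, with Ppargc1b, carried most of the differences described further on. They were taken from RefSeq on GRCm38.p6, read 5′ to 3′ on the strand of the gene, from chr5:51567726-51567975 (minus strand), chr15:85735526-85735775 (plus), chr19:6921809-6922058 (minus) and chr7:35119043-35119292 (plus). Capitals mark every match, on either strand, to 6 short motifs. TGACG is the core of the element that CREB and ATF proteins bind. AGGTCA is the hexamer that nuclear receptors recognise. AAGGTCA is its form with a base more for ERR, so that each match to it is also a match to the hexamer. CCCNNGGG is the palindrome of EBF factors. GGGCGG is the GC box of Sp factors. TATAAA is the TATA box.
Ppargc1a: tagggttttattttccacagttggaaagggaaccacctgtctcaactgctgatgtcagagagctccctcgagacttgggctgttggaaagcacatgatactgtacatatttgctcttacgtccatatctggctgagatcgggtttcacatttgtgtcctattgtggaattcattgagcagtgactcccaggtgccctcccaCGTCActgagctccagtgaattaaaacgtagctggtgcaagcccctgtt
Ppara: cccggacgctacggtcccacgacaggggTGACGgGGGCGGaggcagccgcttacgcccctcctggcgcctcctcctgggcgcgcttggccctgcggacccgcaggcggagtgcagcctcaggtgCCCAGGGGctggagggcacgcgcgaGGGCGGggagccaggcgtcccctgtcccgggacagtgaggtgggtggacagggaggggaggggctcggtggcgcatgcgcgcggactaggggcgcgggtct
Esrra: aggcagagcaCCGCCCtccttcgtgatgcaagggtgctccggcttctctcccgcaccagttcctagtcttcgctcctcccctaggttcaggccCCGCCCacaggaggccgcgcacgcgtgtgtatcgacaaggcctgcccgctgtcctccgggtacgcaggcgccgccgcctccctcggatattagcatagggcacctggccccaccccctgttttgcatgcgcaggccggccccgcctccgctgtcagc
Cebpa: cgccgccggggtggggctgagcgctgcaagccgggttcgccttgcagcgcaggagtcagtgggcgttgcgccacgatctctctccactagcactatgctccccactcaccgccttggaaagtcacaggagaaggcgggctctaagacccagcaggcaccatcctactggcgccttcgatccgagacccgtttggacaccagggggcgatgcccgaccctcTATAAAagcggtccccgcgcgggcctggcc
Ppargc1a held a TGACG match on the opposite strand, 49 bases before the start. Ppara held one match each to the CREB and ATF core and to the EBF palindrome, and the GC box at 2 places, and its sequence was 76.4% G and C against 48% in Ppargc1a. Esrra held the GC box at 2 places, both on the opposite strand, and Cebpa a TATAAA match 30 bases before the start. Over the 10 promoter entries of 8 members, the CREB and ATF core was in 3, the receptor hexamer in 2, its ERR form in 0, the EBF palindrome in 2, the GC box in 7 and the TATA box in 2. Among all 32851 promoter entries of this length the shares were 17.8%, 14%, 4.08%, 11.8%, 32.7% and 12.4% in the same order. A match is a description of the letters and no evidence of binding. Ebf2 and Ppargc1b had no entry in the table used.

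Levels are given as log2 of the processed signal minus the 75th percentile of the array, so that 0 is the signal of that percentile. The arrays fell into a bright and a dim class. The 75th percentile ran from 35.1 to 1209 intensity units, and 11 arrays lay above 600 units while 27 lay at or below 430. The bright arrays were LFC Week 0, 3, 9 and 12, HFC Day 10 and Week 3, HF20 Week 3, 6, 12 and 15, and HF75 Week 3, and HF5 had none. Between 36.6% and 78.8% of the probes of an array were well above background. Each member was well above background on all 38 arrays except Zic1, on 36, and none was saturated. Ppara had no value on the HFC Day 10 array, where its spot was marked as an outlier, and every Ppara fit leaves that array out.

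One library went against the tissue label. On the HF75 Week 3 array, Ucp1 stood at -3.07 where the lowest of the other 37 arrays had 3.38, Cidea (a lipid droplet protein of brown fat) at -1.78 against 5.58, and the mitochondrial subunits Cox7a1 and Cox8b at -0.33 and -2.01 against 4.41 and 4.04. Its Elovl3 spot was not well above background, while those of 34 of the 38 arrays were. The other 2 brown markers were not at their lowest there. Adrb3 stood at 2.18 where the lowest of the other arrays had -0.19, and Dio2 at -4.197 against -4.202. The mean of the 7 brown adipocyte markers was -2.50 there and 1.74 to 5.72 elsewhere, and it was the lowest of the 38 arrays for 5 of the 7. The mean of the 6 measured white adipocyte markers was the highest of all arrays there, at 1.32 against -2.82 to 0.63. So was that of the 8 macrophage markers, at 0.64 against -2.13 to 0.28. Taken singly, 2 of the 6 and 3 of the 8 were at their highest on this array. Zic1 (-8.24, not well above background), Ppargc1a (-3.18), Ppara (-4.02) and Pparg (3.91) were at their lowest of all arrays on it. Ebf2 (0.66), Prdm16 (1.67) and Cebpb (1.74) were not. This array was bright, however, and Ebf2 lay below the lowest of the other bright arrays (1.57). So did Ppargc1b (-1.01 against 3.74), Esrra (1.02 against 4.04) and Cebpa (-1.08 against 2.95). Prdm16 and Cebpb did not, with lowest values of 0.93 and 1.70 on the other bright arrays. The tests of HF75 are therefore given with and without this array, a choice made after the data were seen.

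The brightness of the array went with the level of most members. Leaving out HF75 Week 3, 10 bright and 27 dim arrays were compared as a description. Ppargc1b lay at 4.28 ± 0.32 (SD, n = 10) on bright and -0.22 ± 0.74 (n = 27) on dim arrays, a gap of 4.50. Ppara had 4.61 ± 0.64 (n = 9) and 0.73 ± 0.95, Ppargc1a 2.74 ± 0.92 and -0.53 ± 0.76, and Cebpa 3.43 ± 0.41 and 0.45 ± 0.87. The gap was 2.61 for Ebf2, 2.30 for Esrra, 2.05 for Zic1 and 1.44 for Cebpb, but 0.45 for Pparg and -0.30 for Prdm16. Every bright array exceeded every dim array for 6 members, namely Ebf2, Zic1, Ppargc1b, Ppara, Esrra and Cebpa, beside 6.68% of all genes tested. For Ppargc1a, Cebpb, Pparg and Prdm16 the ranges overlapped. Over all genes the median gap was -0.35, and with quantile normalization it was 0.06, with the same number of members (6) free of overlap. No such gap is given for Ucp1, whose spot was saturated on 8 of the 11 bright arrays and on 0 of the 27 dim ones.

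Arrays of the same day on the same diet can be set side by side. By the study's day count, Day 14 and Week 0 are 1 day. In LFC the Day 14 array was dim and the Week 0 array bright, and between them Ppargc1b went from 0.58 to 4.48, Ppara from 0.86 to 4.32, Esrra from 2.19 to 4.13 and Cebpa from 1.56 to 3.33. In HFC both were dim, and Ppargc1b had -0.37 and -0.01, Ppara 0.69 and 1.27, Esrra 1.89 and 1.51, and Cebpa 1.496 and 0.36. Brightness and other differences between such arrays cannot be told apart, and what sets the classes apart was not tested. Comparisons are therefore also given over pairs of arrays of one class and by fits on the dim arrays alone. The latter were added after the data were seen. Brightness and group were not independent, with 4 of 6 HF20 arrays bright and 0 of 6 HF5 arrays.

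**Figure D1:**
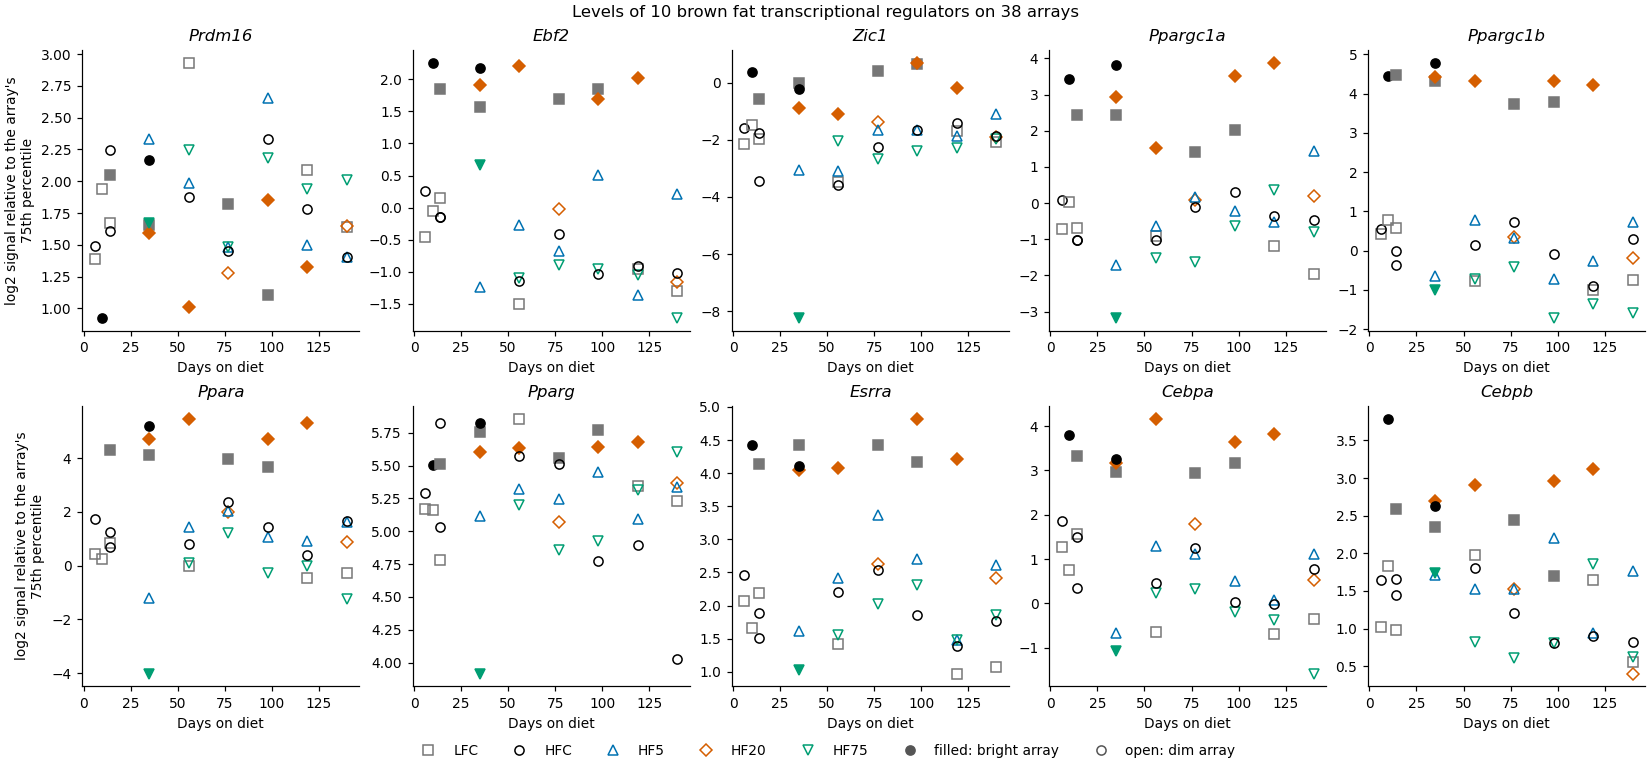
Level of the 10 regulators against days on the diet, on the log2 scale relative to the 75th percentile of each array, with 1 point per array, colour and shape for the group, filled points for bright and open points for dim arrays. Filled points form a separate upper band for Ppargc1b, Ppara, Esrra, Cebpa and Ebf2, apart from the HF75 Week 3 array at day 35, whereas Prdm16 and Pparg show no such band.

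Prdm16, the lineage factor that gives precursors their brown fate, ran from 1.11 to 2.93 in LFC (mean 1.83 ± 0.49, n = 10), 0.93 to 2.34 in HFC (1.73 ± 0.44), 1.40 to 2.66 in HF5 (1.89 ± 0.52, n = 6), 1.01 to 1.85 in HF20 (1.45 ± 0.30) and 1.48 to 2.25 in HF75 (1.92 ± 0.30). It was the only member with HF20 as the lowest group. Ebf2 averaged 0.28 ± 1.36 in LFC, -0.01 ± 1.26 in HFC, -0.47 ± 0.76 in HF5, 1.11 ± 1.37 in HF20 and -0.84 ± 0.80 in HF75. Zic1 averaged -1.23 ± 1.32, -1.74 ± 1.23, -2.06 ± 0.81, -0.78 ± 0.92 and -3.27 ± 2.45 in the same order. Without the HF75 Week 3 array the HF75 means were -1.15 ± 0.33 for Ebf2 and -2.27 ± 0.28 for Zic1 (n = 5).

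The coactivators and their receptors spread more widely. Ppargc1a had a lowest, median and highest level of -1.97, -0.34 and 2.44 in LFC and -1.03, -0.23 and 3.83 in HFC. Ppargc1b averaged 1.56 ± 2.27 in LFC, 0.96 ± 1.98 in HFC, 0.03 ± 0.67 in HF5, 2.90 ± 2.20 in HF20 and -1.14 ± 0.51 in HF75. Ppara averaged 1.69 ± 2.05, 1.73 ± 1.44 (n = 9), 0.98 ± 1.14, 3.85 ± 1.92 and -0.70 ± 1.80. Without the HF75 Week 3 array the HF75 means were -1.16 ± 0.56 for Ppargc1b and -0.04 ± 0.87 for Ppara (n = 5). In these means over all arrays, HF20 was the highest and HF75 the lowest group for all members except Prdm16, with and without that array. The order did not hold for each of them among dim arrays, of which HF20 had 2. There LFC lay below HF75 for Ppargc1a (-0.91 and -0.84) and Esrra (1.56 and 1.85), and HFC for Pparg (5.12 and 5.18). HF5 lay above HF20 for Ebf2 (-0.47 and -0.59), Pparg (5.26 and 5.22) and Cebpb (1.61 and 0.97). It held for Zic1, Ppargc1b, Ppara and Cebpa, in means that pool unlike time points. The dim HF20 arrays were those of Weeks 9 and 18. At these weeks Ppara was lower in HF20 (2.01 and 0.88) than in HFC (2.38 and 1.64). So was Ppargc1b, at 0.35 and -0.20 against 0.72 and 0.30. Cebpa and Zic1 were higher in HF20 than in HFC at Week 9 and lower at Week 18. Esrra ran from 0.97 to 4.42 in LFC, 1.39 to 4.42 in HFC, 1.48 to 3.36 in HF5, 2.42 to 4.83 in HF20 and 1.02 to 2.31 in HF75. Pparg was the steadiest of the receptors, with group means from 4.97 (HF75, or 5.18 without that array) to 5.5 (HF20) and SDs of 0.14 to 0.58. Cebpa averaged 1.43 ± 1.63 in LFC and 1.33 ± 1.32 in HFC, and Cebpb 1.71 ± 0.68 and 1.67 ± 0.93. Neighbours in the order of group means overlapped for every member. The same count is not given for all genes, and every group except HF5 held bright and dim arrays, which widens its range. In bulk tissue, fewer brown adipocytes and less RNA per cell cannot be told apart.

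HFC was compared with LFC to ask whether the high fat diet moved the regulators. With limma on the 20 arrays and the time point as a block, none of the 10 members passed an adjusted p of 0.05, and nor did any of the 21856 genes (0%, beside 1525 genes at an unadjusted p under 0.05). The changes of the members ran from -0.60 to 0.08 with 9 of 10 below 0, and their median was -0.15 beside 0.06 over all genes. The smallest p-values belonged to Zic1 (-0.51, SE 0.45, adjusted p = 0.691), Pparg (-0.19, SE 0.20, adjusted p = 0.733) and Ppargc1b (-0.60, SE 0.71, adjusted p = 0.756). For Ppargc1a the change was 0.08 with a 95% interval of -1.14 to 1.30, which leaves room for a change of over 1 either way.

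At 4 time points the arrays of the pair were of unlike brightness. Ppargc1b differed by -4.49, -3.03 and -3.86 at Week 0, 9 and 12, where only the LFC array was bright, and by 3.67 at Day 10, where only the HFC array was. Prdm16 did not share these signs at 3 of the 4, with 0.20 (Week 0), -0.37 (Week 9), 1.23 (Week 12) and -1.01 (Day 10), and Pparg stood at 0.31, -0.05, -1.0 and 0.34. At the 6 time points with arrays of one class, Ppara was higher in HFC at 5, with differences of 1.31 (Day 6), -0.17 (Day 14), 1.07 (Week 3), 0.82 (Week 6), 0.86 (Week 15) and 1.93 (Week 18). Cebpa was also higher at 5 of 6, by 0.61, -0.07, 0.30, 1.11, 0.67 and 1.13. Pparg was higher in HFC at 3 of these 6. On the 14 dim arrays alone, Ppara differed by 0.95 (SE 0.31, unadjusted p = 0.021, adjusted p = 0.705 in limma) and Cebpa by 0.69 (SE 0.24, unadjusted p = 0.0239, adjusted p = 0.705), and 8 of 10 members lay above 0. Ppargc1b and Zic1 turned sign there, to 0.26 and 0.22. Ucp1, for reference, differed by 1.35 on these arrays (SE 0.49, adjusted p = 0.705), on none of which it was saturated. Over all 20 arrays it was at 1.17 (SE 0.33, adjusted p = 0.644), with saturated spots on 3 LFC arrays and 1 HFC array.

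**Figure D2:**
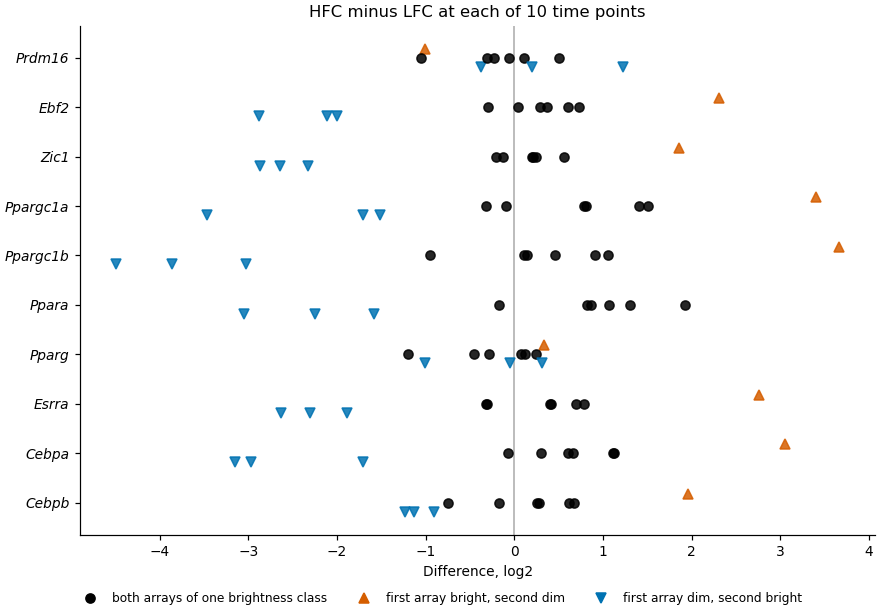
Difference in level between the HFC and LFC arrays of each time point, on the log2 scale, for the 10 regulators, with 1 point per time point coloured by whether the pair was of one brightness class. Points far below 0 come from Week 0, 9 and 12 and those far above from Day 10, which were the pairs of unlike brightness, and pairs of one class lie within about 2 of 0.

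Restricted to weeks 3 to 18 in the fit of 30 arrays, 2 genes passed (0.00915%) and no member did. The smallest p-values were those of Pparg (-0.49, SE 0.28, adjusted p = 0.396), Cebpb (-0.42, SE 0.37, adjusted p = 0.549) and Ebf2 (-0.62, SE 0.61, adjusted p = 0.601). Among dim arrays only, Ppara was at 1.32 (SE 0.37, adjusted p = 0.717) and Ebf2 at 0.17, with 0 genes called.

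Among the other genes of the pathway, none of 15 thermogenic effectors, 24 PPAR targets, 19 ERR and PGC-1 targets, 30 partner factors and 16 repressors passed in HFC against LFC. The effectors with the smallest p were Elovl3, a fatty acid elongase, at -2.98 (SE 0.83) and Ucp1. Of the PPAR targets, Pck1 (gluconeogenesis and glyceroneogenesis) stood at 1.16 and Acadm (medium-chain fatty acid oxidation) at 0.57, and of the ERR and PGC-1 targets Atp5b (ATP synthase) at 0.92 and Cs (citrate synthase) at 0.43. Rxra, the partner receptor of the PPARs, had -0.38 and Zfp516, a factor that binds Prdm16, 0.99. Of the repressors, Zfp423, which holds white adipocytes back from the brown programme, had 0.72 and Rb1 -0.39. The adjusted p was 0.644 for each of these 10 genes. On the 11 bright arrays, spots of Atp5b were saturated on 11 and those of Pck1, Acadm and Cs on 10, so their levels there are lower limits. The 8 lymphocyte markers were all above 0, with a median of 1.12, as were the 6 measured erythroid markers (0.90), and none passed. Among the erythroid markers, spots of Hba-a1 and Hbb-b1 were saturated on all 10 LFC arrays and on 8 and 10 of the HFC arrays. The part of the lymphocyte and erythroid markers in the members' values was not tested.

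Trends over the course were fitted on the 20 LFC and HFC arrays, as change per 100 days on the diet. No member passed, beside 356 genes or 1.63%. The 3 smallest p-values were Cebpb (-0.80, SE 0.35, adjusted p = 0.190), Cebpa (-1.36, SE 0.62, adjusted p = 0.211) and Ebf2 (-1.14, SE 0.56, adjusted p = 0.244). Of the 10 slopes 9 were below 0, where 53.8% of all genes lay above it. On dim arrays the slopes were -0.83 for Ebf2 (SE 0.23, adjusted p = 0.0572) and -1.05 for Cebpa (SE 0.33, adjusted p = 0.0795). With a term for the brightness class Ebf2 (-0.73, adjusted p = 0.0286) and Cebpa (-0.92, adjusted p = 0.0437) passed, among 1734 of all 21856 genes. With a term for the log2 of the 75th percentile instead, 2 genes and 0 members passed. The counts were the same with scan day as a random block. Whether the slope differed between the diets was tested as the product of diet and day, which no member and no gene passed (0%, beside 3346 at an unadjusted p under 0.05). Pparg had the smallest p, with a difference in slope, HFC minus LFC, of -1.0 per 100 days (SE 0.31, unadjusted p = 0.00915, adjusted p = 0.157). Its HFC levels from Week 3 to Week 18 were 5.83, 5.57, 5.51, 4.77, 4.90 and 4.03 in order, and its LFC levels at those weeks stayed between 5.23 and 5.86. The other products were -0.90 for Cebpb (adjusted p = 0.558) and -0.90 for Ebf2 (adjusted p = 0.735).

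The 3 doses of KAL-1 were each compared with HFC in the fit of the 30 arrays of weeks 3 to 18, and they share the same 6 HFC arrays. No gene passed for any dose (0% for HF5, HF20 and HF75), beside 1193, 7245 and 1999 genes at an unadjusted p under 0.05. For HF5 the changes of the members ran from -0.99 to 0.25. Ppara had -0.99 (SE 1.03, adjusted p = 0.882), Ppargc1b -0.80 (SE 0.95, adjusted p = 0.897) and Ppargc1a -0.61 (SE 0.86, adjusted p = 0.913). These 3 rested on Week 3, where a bright HFC array met a dim HF5 array, and without that time point they were 0.09, 0.13 and 0.38. Over the other 5 weeks, in which both arrays were dim, Esrra was higher in HF5 at 5 of 5, by 0.57 (SE 0.23, adjusted p = 0.435 on dim arrays).

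For HF20, 9 of 10 members lay above 0 and 5 had an unadjusted p under 0.05. Their median was 1.44 where that of all genes was -0.20. The smallest p-values were those of Cebpa (1.90, SE 0.72, adjusted p = 0.119), Esrra (1.39, SE 0.55, adjusted p = 0.120) and Cebpb (0.91, SE 0.37, adjusted p = 0.121). From Week 3 to Week 18 in order, HF20 minus HFC was -0.49, 4.67, -0.37, 3.28, 4.94 and -0.77 for Ppara. The high differences were those of Weeks 6, 12 and 15, in which a bright HF20 array met a dim HFC array, and the 3 weeks with arrays of one class were all below 0. Cebpa had -0.09, 0.56 and -0.25 at those 3 weeks. On dim arrays only, the 10 members ran from -0.28 to 0.46 with a smallest adjusted p of 0.781. Down-weighting less regular arrays called 7 members and 6259 genes, and leaving out Week 3 called 4 members and 3592 genes. Without Week 3, 3 of the 5 remaining pairs were of unlike brightness.

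For HF75, 9 of 10 members lay below 0, and Ppara, Ppargc1b and Cebpa were lower than in HFC at 6 of 6 weeks. With normexp background correction 10 of 10 members lay below 0, but not every week kept its difference. At Week 12 Cebpa was then higher in HF75 (-0.01) than in HFC (-0.07). Ppargc1b stood at -0.05 and 0.04 there, and Ppara at -0.01 and 1.09. Ppara was at -2.68 (SE 1.03, adjusted p = 0.538), Ppargc1b at -1.96 (SE 0.95, adjusted p = 0.545) and Cebpa at -1.40 (SE 0.72, adjusted p = 0.556). The Ppara levels were -4.02, 0.09, 1.21, -0.28, 0.01 and -1.23 in HF75 at Weeks 3 to 18, against 5.20, 0.81, 2.38, 1.42, 0.39 and 1.64 in HFC. The HFC and HF75 arrays of each week were of the same brightness class, so these differences hold no pair of unlike class. Within the dim class brightness still differed. The 75th percentile was lower in HF75 than in HFC at Week 6 (113.6 and 163.3), 9 (35.1 and 48.3), 12 (71.7 and 119.7) and 15 (213 and 239). At Week 18 it was higher (75.2 and 49.8), and its part in these differences was not tested. Without the HF75 Week 3 array 8 of 10 members lay below 0, and Ppara was at -1.80 (SE 0.97, adjusted p = 0.812), Ppargc1b at -1.61 (SE 1.01, adjusted p = 0.821) and Cebpa at -1.12 (SE 0.75, adjusted p = 0.821). In dim arrays only, which also leaves out that array, the 3 genes had -1.37 (SE 0.31, unadjusted p = 0.00052), -1.20 (SE 0.27, unadjusted p = 0.000482) and -0.81 (SE 0.32, unadjusted p = 0.0248), each with an adjusted p of 0.411 in limma. In the same 5 weeks Pparg and Prdm16 differed by 0.23 and 0.20.

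**Figure D3:**
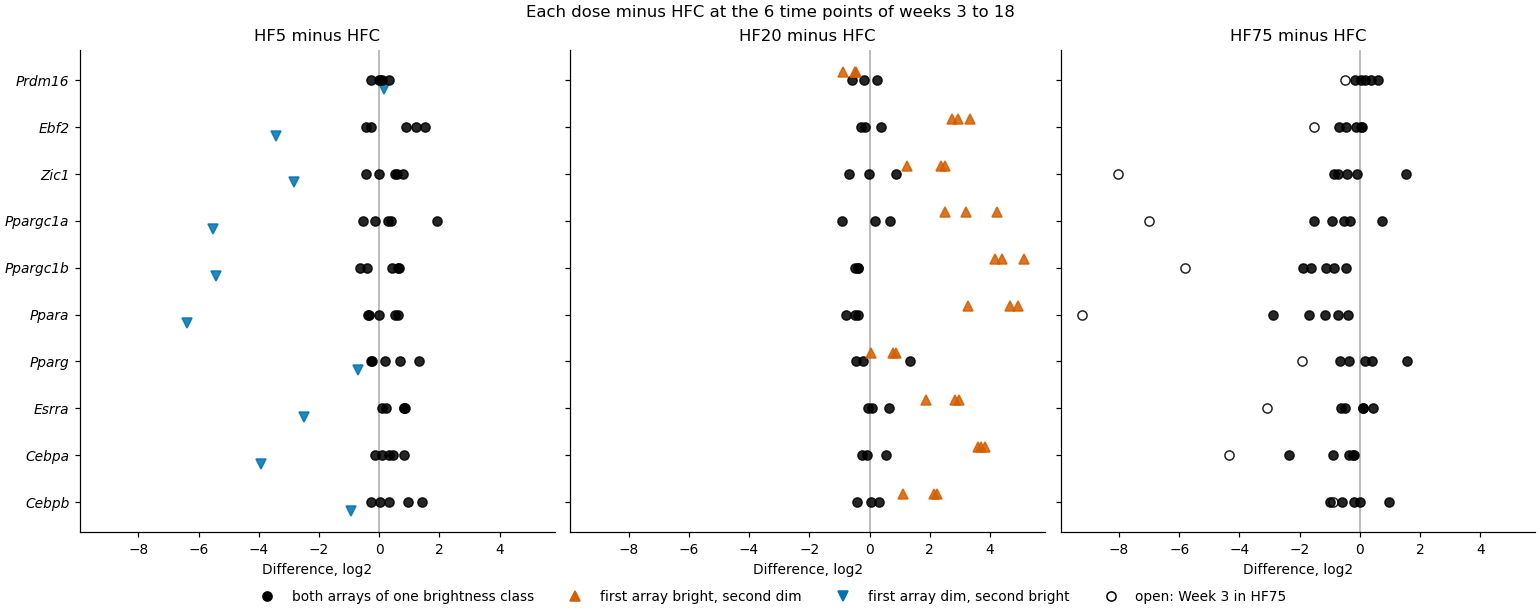
Difference in level of each dose group from the HFC array of the same week, on the log2 scale, for the 10 regulators, with 1 point per week from Week 3 to Week 18, coloured by whether both arrays were of one brightness class, and the HF75 Week 3 array drawn open. In HF20 the high points of Ppara and Ppargc1b are Weeks 6, 12 and 15, whereas in HF75 all 6 points of Ppara, Ppargc1b and Cebpa lie below 0.

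No gene of the pathway lists passed in any dose against HFC. In HF20, 18 of 19 ERR and PGC-1 targets lay above 0, led by Tfam, the mitochondrial DNA packaging factor (1.24), and Ndufb5 of complex I (1.32), and 20 of 24 PPAR targets, among them Slc2a4, the insulin-responsive glucose transporter (2.0). Over all genes 41.5% lay above 0. These HF20 values rest on the same pairs as those of the members, of which 3 set a bright HF20 array against a dim HFC array. The median of the members was 1.44 over all arrays and 0.30 on dim arrays. The lists were not counted on dim arrays, so the part of brightness in them was not tested. Of the effectors, the adrenergic receptor Adrb3 and the deiodinase Dio2, which activates thyroid hormone, stood at 2.19 and 2.07. Esrrg, a relative of Esrra, ran the other way at -1.77, and Gata2, a repressor of fat cell differentiation, was at -1.30. The coactivator Ncoa1 and the deacetylase Hdac3 stood at 0.51 and 0.47. Adjusted p-values of these 9 genes ran from 0.118 to 0.178.

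In HF75, 15 of 15 effectors and 19 of 19 ERR and PGC-1 targets lay below 0, where 47.5% of all genes lay above it. Ucp1 was at -2.26, Cox8b at -1.91 and Sdhb of complex II at -1.45. The 7 brown adipocyte markers were all below 0, but this list shares genes with the effectors, Ucp1 and Cox8b among them. The 2 counts are thus not separate. Without the HF75 Week 3 array 15 of 15 effectors, 17 of 19 ERR and PGC-1 targets and 7 of 7 brown markers lay below 0, where 49.9% of all genes lay above it, and Ucp1 was at -0.78 (SE 0.50, adjusted p = 0.821), Cox8b at -0.62 (SE 0.44, adjusted p = 0.826) and Sdhb at -1.06 (SE 0.67, adjusted p = 0.821). With that array, Cd36, a fatty acid transporter, was at 0.77 (0.79 without it) and Slc25a20, the carnitine carrier, at -1.52 (-1.27 without it). Ehmt1, the methyltransferase partner of Prdm16, was at 0.84 (0.89 without it) and the coactivator Ncoa2 at 0.97 (1.02 without it). Of the repressors, the pocket protein Rbl1 was at 0.91 (0.96 without it) and Ddit3 at -0.54 (-0.59 without it). Adjusted p-values of these 9 genes in limma ran from 0.538 to 0.553 with that array and from 0.812 to 0.826 without it. In HF5 the effectors with the smallest p were Elovl3 (1.14) and the potassium channel Kcnk3 (-0.76), and the PPAR targets were Angptl4, an inhibitor of lipoprotein lipase (0.72), and Cd36 (0.47). Mdh2 (0.62) and Cox4i1 (0.29) were the mitochondrial enzymes, Ppard (-1.07) and Ehmt1 (0.59) the partners, and Gata3 (1.47) and Rbl1 (0.76) the repressors. Their adjusted p-values ran from 0.822 to 0.896. Skeletal muscle markers were above 0 in 12 of 12 in HF20 (median 1.67), 10 of 12 in HF5 (0.82) and 10 of 12 in HF75 (0.49, or 12 of 12 and 1.26 without the HF75 Week 3 array). Of the genes named for the doses, spots of Cox8b, Angptl4, Mdh2 and Cox4i1 were saturated on 10 of the 11 bright arrays, of Sdhb on 6, of Slc2a4 on 5 and of Adrb3 on 3.

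The doses differed among themselves. In limma's moderated F test, 2924 genes passed (13.4%), and 5 of 10 members did. These were Cebpa (HF20 minus HF5 2.29, HF75 minus HF5 -1.01, adjusted p = 0.0342), Ppara (2.87 and -1.69, adjusted p = 0.0342), Ppargc1b (2.87 and -1.17, adjusted p = 0.0346), Ppargc1a (2.27 and -0.99, adjusted p = 0.0400) and Esrra (1.33 and -0.66, adjusted p = 0.0461). In all 5, HF20 was the highest and HF75 the lowest of the doses. Ebf2, Cebpb, Zic1, Prdm16 and Pparg had adjusted p-values of 0.0570, 0.0637, 0.0843, 0.292 and 0.322. Of the 2924 genes, HF20 was the highest dose in 1501 and the lowest in 1420. The F test also called 1 of 15 effectors, 6 of 24 PPAR targets, 7 of 19 ERR and PGC-1 targets, 3 of 30 partners and 3 of 16 repressors. HF20 was the bright dose, with 4 of 6 arrays bright against 0 in HF5 and 1 in HF75. Without the HF75 Week 3 array 0 genes and 0 members passed, with 7554 genes at an unadjusted p under 0.05 and adjusted p-values of 0.0643 for Cebpa, Ppara and Ppargc1b, 0.0714 for Ppargc1a and 0.0840 for Esrra. The counts were also 0 without Week 3, 6, 12 or 15, with normexp background correction, with no filter on dim probes, on dim arrays only, and with a term for the brightness class, for the log2 of the 75th percentile or for the mean of the skeletal muscle markers. Among the dim arrays HF20 minus HF5 was -0.34 for Ppara and -0.41 for Ppargc1b, below 0, while HF75 lay below HF5 at 5 of 5 weeks for Ppara (-1.46), Ppargc1b (-1.33) and Cebpa (-1.13).

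The link to the thermogenic effector was examined on the dim arrays, since the classes differ in level. Over the 27 dim arrays, Ucp1 went with Ppara (Pearson r = 0.78, permutation p = 1e-05, the smallest that 100000 permutations give, Spearman rho = 0.84), with Esrra (r = 0.76, permutation p = 1e-05, rho = 0.70) and with Ppargc1a (r = 0.65, permutation p = 0.00029, rho = 0.59). Weaker relations were seen for Cebpa (r = 0.53, permutation p = 0.00434) and Ppargc1b (r = 0.50, permutation p = 0.0087). Ebf2, Zic1, Cebpb and Pparg had r of 0.36, 0.19, 0.11 and -0.05, and Prdm16 -0.38 (permutation p = 0.0477). Of all genes tested, 1.74% had a higher r with Ucp1 than Ppara, 2.07% than Esrra, 4.42% than Ppargc1a and 91.1% than Prdm16, and the median r over all genes was 0.07. Leaving out the 2 arrays farthest from the median left r at 0.83 for Ppara, 0.70 for Esrra, 0.49 for Ppargc1a and -0.39 for Prdm16. In all, 20 relations were computed over both classes, and their p-values are unadjusted. These arrays share time points, and the relations are a description of the tissue samples. Without the 4 dim arrays of Week 9, left out after the data were seen, r was 0.67 for Ppara, 0.66 for Esrra, 0.73 for Ppargc1a and -0.17 for Prdm16, and with time point means subtracted 0.73, 0.74, 0.89 and -0.40. With normexp background correction Ppara had 0.74, Esrra 0.70 and Ppargc1a 0.26, and Prdm16 turned to 0.21. No relation is given for the bright arrays, since Ucp1 was saturated on 8 of the 11.

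**Figure D4:**
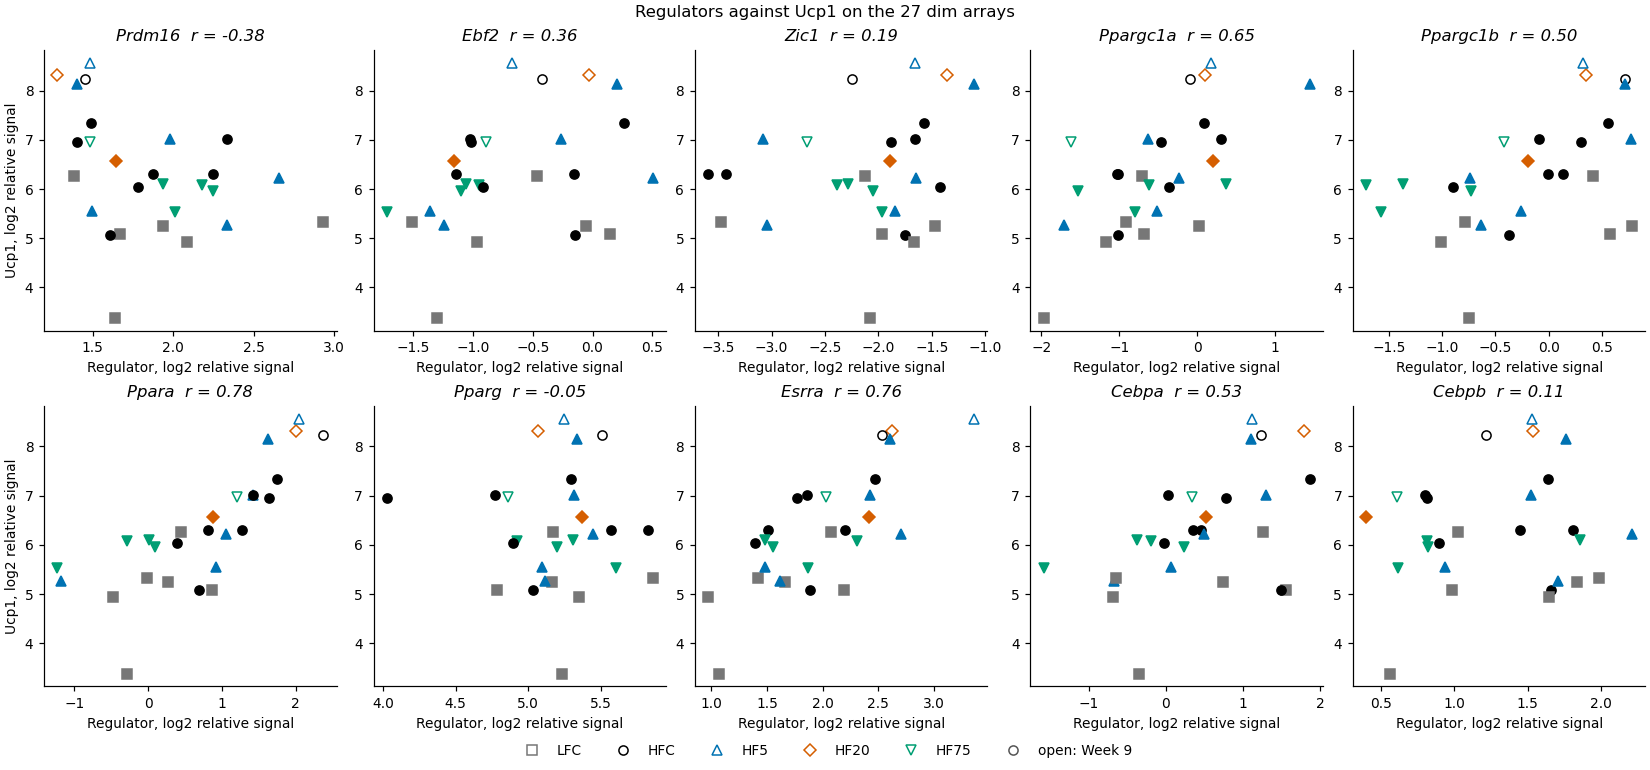
Level of each regulator against the level of Ucp1 on the 27 dim arrays, both on the log2 scale relative to the 75th percentile of the array, with Week 9 arrays drawn open and Pearson r in the panel titles. Ppara (0.78) and Esrra (0.76) rise with Ucp1, and Pparg (-0.05) and Prdm16 (-0.38) do not.

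The genes most like each member over the 38 arrays, after the mean of each brightness class was subtracted, are named as a description, and the arrays share groups, depth and the HF75 Week 3 array. Ppargc1b was closest to Afg3l2, a mitochondrial protease, and Kcnk3, a potassium channel (r = 0.94 for both), and Ppara to Ldhd and Rgs7 (0.95). Cebpa was close to Rnf5 (0.94), and Esrra was closest to Lage3 (0.95) and Timm13 (0.94), a mitochondrial import chaperone. Ppargc1a was closest to Timm8a1 and Mrpl39 (0.86), both of the mitochondrion. Zic1 was nearest to Acsm3 (0.88), for which r was 0.56 without the HF75 Week 3 array. Ebf2 was nearest to Hmgb3 (0.80) and Ctdspl (0.78), Pparg to Pnpt1 (0.82) and Dcaf6 (0.81), Prdm16 to Ahsa2 (0.74) and A230046K03Rik (0.73), and Cebpb to Nup50 (0.70) and Tbpl1 (0.69). Without that array the likeness was 0.84 for both genes of Ppargc1b, 0.85 and 0.83 for Ppara, 0.90 for Cebpa with Rnf5, and 0.90 and 0.88 for Esrra. It was 0.76 and 0.65 for Ppargc1a with Timm8a1 and Mrpl39, and 0.65 and 0.74 for Pparg with Pnpt1 and Dcaf6. With normexp background correction Prdm16 had 0.04 with Ahsa2 and 0.01 with A230046K03Rik, and Pparg -0.23 with Dcaf6. Among the members themselves, the closest pairs on dim arrays were Ppargc1b with Cebpa (0.81), Ppara with Cebpa (0.79), Ebf2 with Cebpa (0.78) and Ppargc1b with Ppara (0.74).

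Of the members, 4 had a second probe. Its deviations followed those of the first at r = 0.99 for Zic1, 0.95 for Ppargc1b, 0.88 for Cebpa and 0.84 for Ppargc1a, and HF20 minus HFC was 0.78, 2.15, 1.59 and 1.24 on the second against 1.05, 2.08, 1.90 and 1.66 on the first. The second probe of Cebpa was well above background on 32 of 38 arrays.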

How the data were processed

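Total RNA of brown adipose tissue was labelled with Cy3 and hybridised to custom Agilent mouse arrays, per the labels. The deposited scanner files hold the authors' processed signal as intensity, corrected for background but not scaled between arrays, from Feature Extraction 10.5.1.1 (9.1 in the submitters' processing notes). The authors' log2 fold changes against LFC, deposited as 1 table, were not used. No sample column was left unmapped (0). Gene names are those of the array; 5 names turned into dates in 4 files were taken from another file. There were 32 slides and 12 scan days for the 38 arrays. The number of arrays and their signal over background limit the precision.

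Groups, times and doses came from the labels, with Week w at 14 plus 7w days. The log2 signal minus the 75th percentile of the array was used, for the probe with the highest mean per gene name, and the genes tested, which had to be well above background on 6 or more arrays, were fitted with limma 3.58.1 (lmFit, eBayes) in R 4.3.3, two-sided, with Benjamini-Hochberg adjustment over all 21856 genes, a threshold of 0.05 and the time point as a block (not in the trend over days). Arrays with a 75th percentile above 600 units were called bright. Correlations with Ucp1 used 100000 permutations in scipy 1.17.1 (Python 3.11.15), with numpy 2.4.6, and tables and plots data.table (version 1.17.8) and matplotlib 3.10.9. Same-time arrays of LFC and HFC deviated together at r of -0.25 to 0.67, so the shared time point is a label and not shown to pair animals. The members, lists and rules were chosen with earlier results of these data known. In each comparison the 3 members with the smallest p are given in full, in each list the 2 genes with the smallest p, and for likeness the 2 highest r. A few genes named by these rules are left out here. The fits were tested on simulated data. Alternatives covered the normalization, background correction, filters, probe choice, slide and scan day, array weights, brightness, muscle markers, blocking and each time point left out, and the methods' t-test. Those added after the data were seen left out HF75 Week 3, the bright arrays or Week 9, or subtracted time point means.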

Additional observations from a re-analysis of the deposited data

Results flagged for a closer look

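On 3 arrays, 4 levels stood apart from the rest of their group by the gap to the next array. Zic1 on the HF75 Week 3 array was at -8.24 with the next lowest of the group at -2.67, and Ebf2 on the same array was the highest of its group at 0.66 with the next at -0.89. Ppara on the HFC Week 3 array was at 5.20 with the next at 2.38, and on the HF5 Week 3 array at -1.19 with the next at 0.92. HF75 Week 3 and HFC Week 3 were the bright arrays of their groups in weeks 3 to 18. Ppara had no value on the other bright HFC array, that of Day 10, so Week 3 was its only bright value in HFC. In all, 4 of 50 sets of arrays were marked this way, where chance marks about 1 in 20 of independent sets with 1 common spread. These sets share arrays, and all groups but HF5 mix bright and dim ones, so that rate cannot be used to judge the count.

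The change against HFC differed among HF5, HF20 and HF75 for 5 regulators by limma's F test, with adjusted p-values of 0.0342 for Cebpa, 0.0342 for Ppara, 0.0346 for Ppargc1b, 0.0400 for Ppargc1a and 0.0461 for Esrra. The 5 genes were highest in HF20, the dose with 4 of 6 bright arrays, and none of them passed without the HF75 Week 3 array or on dim arrays only.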

How the results depend on the processing

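No member was called in HFC against LFC (over the full course or in weeks 3 to 18), in HF5 or HF75 against HFC or for the product of diet and day under any alternative run. For HF20 against HFC, array weights called 7 members and 6259 genes, and leaving out single time points gave 0 to 4 members and 0 to 3592 genes, the highest without Week 3. The dose differences (5 members, 2924 genes) rose to 8 members and 8809 genes with array weights and to 6459 genes with the slide as a random block, were 1237 genes with no replicate block, and came to 0 members and 0 genes with normexp, no filter on dim probes, brightness class, log2 of the 75th percentile or muscle markers in the model, dim arrays only, or without HF75 Week 3. Leaving out single time points gave 0 (Week 3, 6, 12 or 15) to 5389 genes (Week 9), and 5373 without Week 18.

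In HFC against LFC, 1 gene passed with array weights, 5 on all 38 arrays and 0 to 2 without single time points, and in HF5 against HFC 6 with array weights. In HF75 against HFC, 1 passed with quantile normalization, the strict background filter, array weights or brightness class, and 0 to 1 without single time points. In weeks 3 to 18, HFC against LFC called 4 genes with quantile normalization, 1 with no filter, the slide block, muscle markers or without HF75 Week 3, 0 to 2 without single time points, and 0 with normexp, the strict filter, the floor, both brightness terms, dim arrays only or no replicate block. The trend over days called 921 genes with quantile normalization, 550 with normexp, 68 with no filter, 78 with the strict filter, 603 with the floor, 165 with mean probes, 2 with scan day as a block, 1419 with array weights, 1734 (and 2 members) with brightness class, 2 with log2 of the 75th percentile, 160 with muscle markers, 1480 on all 38 arrays, 829 on dim arrays and 7 to 649 without single time points. The product of diet and day called 766 with array weights, 669 with brightness class, 1 with log2 of the 75th percentile and 0 to 373 without single time points.

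Signs turned as follows, and the cause was not tested. In HFC against LFC, Ppargc1b became 0.17 with brightness class, 0.36 with log2 of the 75th percentile and 0.26 on dim arrays, and Zic1 0.15 with log2 of the 75th percentile and 0.22 on dim arrays. In weeks 3 to 18, Ebf2 became 0.31, 0.37 and 0.17 under those 3 settings. In HF5 against HFC, Ppara became 0.0882 on dim arrays, Ppargc1b 0.13 and Ppargc1a 0.38, and without single time points they ran from -1.31 (without Week 6) to 0.0882 (without Week 3), from -1.08 to 0.13 and from -1.11 (without Week 18) to 0.38. HF20 minus HF5 became -0.34 for Ppara and -0.41 for Ppargc1b on dim arrays. The product for Ebf2 became 0.28 with log2 of the 75th percentile. With normexp the likeness of Pparg to Dcaf6 was -0.23 and r of Prdm16 with Ucp1 0.21. The methods' t-test of HFC against LFC called 905 genes unadjusted and 0 after Benjamini-Hochberg, with 0 members.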
